A study of Monodelphis domestica and Mus musculus with 2 samples.

Results

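Deptor, Foxo1, Ptprm, Il1rapl2 and Hsd11b1 are 5 genes that have been used to mark intratelencephalic (IT) neurons of cortical layer 5, and they are described here in the primary visual cortex (V1) of the gray short-tailed opossum and the mouse. They were taken by gene symbol, with letter case ignored, and all 5 were found among the 61317 features of the mouse table. In the opossum 4 were found among 30613 features, of which 11598 carry a symbol other than their identifier, and no feature has the symbol HSD11B1, so that this gene has no opossum value here. The data are Stereo-seq, in which a section lies on a chip of barcoded spots and the unique molecular identifiers (UMIs) caught there are summed over each segmented cell.

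The opossum was 1 male of about 6 months and the mouse 1 male wild-type C57BL/6J of about postnatal day 40, neither with a treatment named in the labels. Several coronal slices of the brain were frozen in a block, and 1 cut of 10 µm through the block was placed on the chip, so that the regions of a species lie in more than 1 coronal slice. RNA integrity was 7.1 in the opossum block and above 9 in the mouse block. V1 was covered by 3 regions in the opossum (4806 of 80369 segmented cells) and 4 in the mouse (9127 of 120239 cells), and these regions are parts of the tissue of 1 animal, not biological replicates. The study asks how IT neurons are arranged by layer in a marsupial and a placental mammal, with mouse L5IT and opossum IT_C set side by side. Its opossum IT subclasses came from unsupervised clustering, and it found the match of IT_C to the mouse IT subclasses weak and inconsistent.

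IT neurons send their axons to other parts of the cortex and to the striatum, and those of layer 5 lie among the pyramidal tract (PT) and near-projecting (NP) neurons of the same layer. The 5 genes act in different pathways. DEPTOR binds and inhibits the mTOR kinase complexes, which control growth and protein synthesis, and FOXO1 is a transcription factor that is kept out of the nucleus when insulin signalling activates AKT. PTPRM is a receptor-type tyrosine phosphatase whose outer part binds the same protein on the next cell, IL1RAPL2 belongs to a family of interleukin-1 receptor-like proteins that includes a synaptic organiser, and HSD11B1 regenerates active glucocorticoid from its inactive form.

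In the mouse annotation of GRCm39, Deptor is a protein-coding gene on chromosome 15 from 54975710 to 55122667 on the plus strand. Foxo1 lies on chromosome 3 from 52175757 to 52260642 (plus), Ptprm on chromosome 17 from 66973841 to 67662085 (minus), Il1rapl2 on chromosome X from 136471357 to 137749670 (plus) and Hsd11b1 on chromosome 1 from 192903918 to 192946489 (minus). Lamb3 overlaps Hsd11b1 on the opposite strand and had 27 UMIs in V1, against 203 of Hsd11b1. No other gene that overlaps 1 of the 5 and has a value had more than 8 UMIs.

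A V1 cell held a median of 1326 UMIs in the opossum (1048 to 1503 by region) and 1305 in the mouse (1259 to 1343). Levels are UMIs of a gene per 10000 UMIs of all genes, pooled over the cells named, with exact Poisson 95% intervals. Ratios of levels carry exact 95% counting intervals, and intervals throughout cover counting error only. In orders of subclasses by level only neighbours were compared, and subclasses farther apart in an order can differ. With 1 animal per species no test was possible, and the direction in each region is given in its place. The subclass labels were transferred from single-nucleus atlases by nearest neighbours in expression space, so a level by subclass is a description of cells that were labelled partly by these same genes; position did not enter the labels.

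The labels separated cells incompletely. In the mouse, Slc17a7, the vesicular glutamate transporter of cortical excitatory neurons, was at 10.6 UMIs per 10000 in L5IT cells and 10.8 in non-neuronal cells, and the myelin gene Mbp was at 9.15 in L5IT cells and 14.4 in non-neuronal cells. In the opossum the interneuron gene Gad1 was at 2.60 in IT_C cells and 2.74 in non-neuronal cells, and Mbp at 26.0 and 51.4. What part such shared RNA has in the levels below was not tested. Class and subclass labels were given separately and did not always match. Of 3752 opossum cells of the glutamatergic class, 2711 had a glutamatergic subclass label, 599 a non-neuronal one, 251 a GABAergic one and 191 none, and of 6245 such mouse cells the numbers were 5322, 234, 48 and 641. Of 1257 opossum cells with a non-neuronal subclass label, 649 were in the non-neuronal class. Shares and band ratios below for glutamatergic or non-neuronal cells use the class, and ratios of a subclass use the subclass.

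Il1rapl2 was the gene of the set most concentrated in mouse L5IT cells. Its level in the 135 L5IT cells was 16.2 UMIs per 10000 in region 1, 15.4 in region 2, 9.05 in region 3 and 9.63 in region 4. The pooled level was 12.2 (95% interval 10.8 to 13.8, 261 UMIs). L6IT cells followed at 1.74 (1.43 to 2.09), and in regions 1 to 4 they held 2.08, 1.71, 1.52 and 1.13. L5IT lay above L6IT in each region. The L5IT level was 7.05 times that of L6IT (5.63 to 8.86). After L6IT came Sst interneurons at 0.989, Lamp5 at 0.961 and Pvalb at 0.846, whose neighbouring levels differed by less than their counting error. All other named subclasses held 0.350 or less.

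Against the other glutamatergic subclasses together, which held 0.384 UMIs per 10000, the Il1rapl2 level of L5IT was 31.8 times as high (26.8 to 37.8). The ratio was 35.5, 36.1, 34.9 and 28.2 in regions 1 to 4. None of the 12369 mouse genes compared had a higher ratio. At least 1 UMI was found in 87 of 135 L5IT cells (64.4%, exact 95% interval 55.8% to 72.5%, median 1557 UMIs per cell) and in 47 of 1873 non-neuronal cells (2.51%, median 1245). Thinned to 500 UMIs per cell, with 3 L5IT cells too shallow to use, the shares were 40.9% and 1.37%. Of the 25 mouse cells with 5 or more Il1rapl2 UMIs, 15 were labelled L5IT and 4 L6IT. The richest cell, an L5IT cell, held 15, and without it the L5IT level was 11.6.

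**Figure D1:**
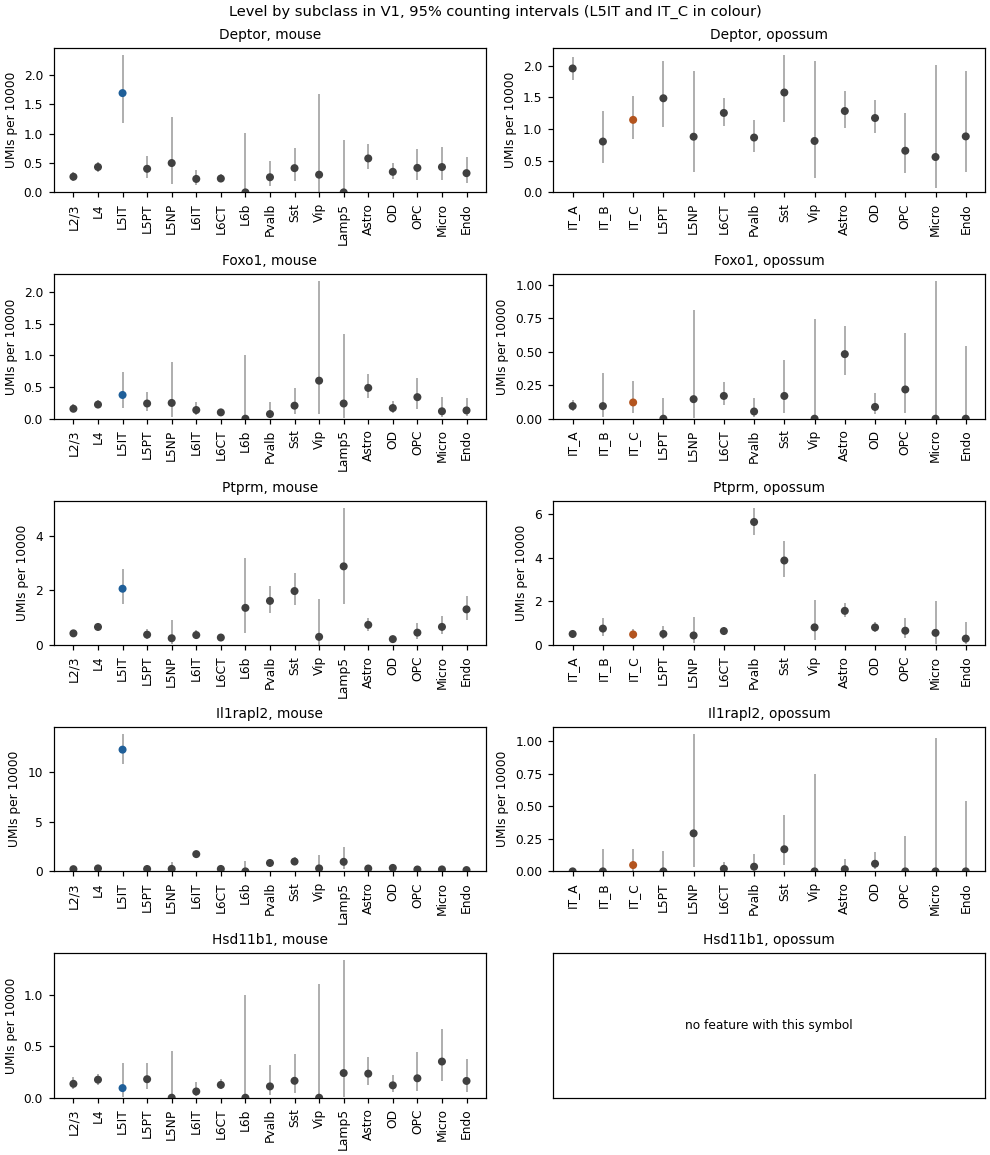
Level of each gene (y axis, UMIs per 10000) in each subclass with at least 25 V1 cells (x axis), mouse left and opossum right; points are pooled levels, bars exact Poisson 95% intervals, and L5IT and IT_C are coloured. Mouse Il1rapl2 stands at 12.2 in L5IT with every other subclass at or below 1.74, whereas opossum Ptprm is highest in Pvalb cells at 5.64.

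In the opossum Il1rapl2 was near the floor of detection. The 4806 V1 cells held 18 UMIs, of which 4 were in Sst cells, 4 in oligodendrocytes, 2 in IT_C and 2 in L5NP. The IT_C level was 0.0487 UMIs per 10000 (0.00589 to 0.176). IT_A, with 2328190 UMIs of all genes, held 0, where 3 UMIs would be a level of 0.0129. IT_B and L5PT also held 0, with larger limits of 0.141 and 0.127. The ratio of IT_C to the other glutamatergic subclasses rested on 2 against 4 UMIs and was 4.67 (0.423 to 32.6), so that neither its size nor its direction can be read from so few UMIs. Outside V1 the opossum section held 170 UMIs of Il1rapl2 at 0.0219 per 10000, and the mouse section 6642 at 0.491. In its single-nucleus data the study found fewer opossum than mouse reads on annotated transcripts. It also found many opossum genes annotated without their untranslated ends, and extended gene ends before counting. What part annotation has in the low opossum level was not tested.

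Deptor, the mTOR inhibitor, was also highest in L5IT in the mouse. The 4 regions held 1.64, 1.22, 1.78 and 2.01 UMIs per 10000 in L5IT cells, from 9, 5, 12 and 10 UMIs. The other glutamatergic subclasses held 0.286, 0.289, 0.428 and 0.302 in the same regions, below L5IT in each. Pooled, the level was 1.69 (1.18 to 2.34) in L5IT against 0.319, a ratio of 5.30 (3.62 to 7.54). Of 12369 genes, 12 had a higher ratio. Astrocytes came next at 0.577 (0.395 to 0.815), and L5IT stood 2.92 times above them (1.77 to 4.86). From astrocytes down to L6IT at 0.229, no subclass differed from its neighbour in the order by more than counting error.

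The mouse L5IT level of Deptor was above those of the layer 5 neighbours in the data. L5PT was at 0.237 of it (0.130 to 0.421) and L5NP at 0.295 (0.0763 to 0.824). Deptor was found in 23 of 135 L5IT cells (17.0%, 11.1% to 24.5%) and in 83 of 1873 non-neuronal cells (4.43%). At 500 UMIs per cell the shares were 7.58% and 1.76%. L5IT cells labelled in the first and strictest round of the authors' procedure held 2.71 UMIs per 10000 (29 cells), those of the second 1.57 (69 cells) and those of the third 0.943 (37 cells). The intervals of these rounds overlap. Although highest in L5IT, Deptor was not confined to it, since 36 of its 463 UMIs in mouse V1 were in L5IT cells and 108 in L4 cells at 0.431.

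The opossum pattern of Deptor was different. IT_A, the most superficial IT subclass, was at 1.95 UMIs per 10000 (1.78 to 2.14, 455 UMIs), from 1.95, 2.11 and 1.60 in the 3 regions. IT_C was at 1.14 (0.840 to 1.52, 47 UMIs), from 0.766, 1.46 and 1.21. IT_C lay below IT_A in each region, and IT_A stood 1.71 times above it (1.26 to 2.36). Sst cells at 1.57, L5PT at 1.48, astrocytes at 1.28 and L6CT at 1.25 lay between them, and no adjacent pair in the order differed by more than counting error. IT_C over the other glutamatergic subclasses gave 0.689 (0.501 to 0.927), with 0.449, 0.814 and 0.919 by region. IT_A held 455 of the 638 Deptor UMIs of these other subclasses and 1596 of their 2444 cells. Of 14 opossum cells with 5 or more Deptor UMIs, 9 were among the 1596 IT_A cells and 1 was among the 262 IT_C cells. Deptor was found in 13.0% of IT_C cells (34 of 262), in 16.1% of IT_A cells (257 of 1596) and in 11.7% of non-neuronal cells (79 of 677, median 1155 UMIs against 1456 in IT_C).

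Ptprm, the adhesive phosphatase, was high in mouse L5IT but also in interneurons. In L5IT its level was 4.18 UMIs per 10000 in region 1, 2.20 in region 2, 1.04 in region 3 and 1.00 in region 4, so that region 1 lay above the pooled level of every subclass and regions 3 and 4 below that of Pvalb cells. The pooled L5IT level of 2.06 (1.499 to 2.77, 44 UMIs) lay between Lamp5 at 2.88 (1.49 to 5.04, 12 UMIs) and Sst at 1.98 (1.46 to 2.62), with Pvalb at 1.62, and none of these neighbours differed by more than counting error. Region 1 also had the highest level among Sst cells, at 2.91, and Pvalb cells, at 2.30. Over the other glutamatergic subclasses L5IT stood 4.49 times higher (3.21 to 6.16), or 8.59, 6.21, 2.63 and 1.82 by region, and without region 1 the ratio was 3.00.

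In the opossum Ptprm was highest in interneurons, and IT_C was among the lower subclasses. Pvalb cells held 5.76, 5.92 and 4.32 UMIs per 10000 in the 3 regions and 5.64 pooled (5.03 to 6.30). Sst cells held 3.60, 4.40 and 3.54, and 3.87 pooled (3.12 to 4.76). Both subclasses were above astrocytes, the next subclass at 1.57, in every region. One Pvalb cell held 34 of the 833 Ptprm UMIs, and without it the Pvalb level was 5.04 (4.47 to 5.67). IT_C was at 0.487 (0.297 to 0.752), and its ratio to the other glutamatergic subclasses was 0.878 (0.525 to 1.39), with 0.652, 0.803 and 1.67 by region.

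Foxo1 was sparse in both species. In mouse L5IT cells it had 3, 3, 1 and 1 UMIs in regions 1 to 4, a pooled level of 0.375 (0.162 to 0.739), against 0.168 in the other glutamatergic subclasses. The ratio of 2.23 (0.944 to 4.54) includes 1 and was 0.763 in region 3. Vip cells at 0.602 rested on 2 UMIs and astrocytes at 0.487 (0.321 to 0.709) on 27, and no neighbours in the mouse order were separated by more than counting error. Farther down that order, L6CT at 0.100 (0.0611 to 0.155) had an interval wholly below that of astrocytes. In the opossum, astrocytes were highest at 0.483 (0.324 to 0.694), from 0.362, 0.621 and 0.411 by region, while IT_C held 0.122 from 5 UMIs and IT_A 0.0945 from 22. One opossum L6CT cell held 8 of all 96 Foxo1 UMIs, and without it the L6CT level was 0.0905.

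Hsd11b1 was at a low level throughout mouse V1, with 203 UMIs in all and 0.162 UMIs per 10000. L5IT held 0 UMIs in regions 1 and 2 and 1 in each of regions 3 and 4. The resulting level was 0.0938 (0.0114 to 0.339) against 0.140 in the other glutamatergic subclasses, a ratio of 0.668 (0.0799 to 2.47), so no difference was detectable at this depth. Microglia were first in the order at 0.352 (0.161 to 0.669, 9 UMIs), and no neighbours in that order differed beyond counting error.

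To read these ratios against all genes, a gene was counted when its pooled ratio was at least 1.5 and its ratio was above 1 in every region, among genes with at least 50 UMIs in glutamatergic V1 cells. In mouse L5IT 3 of the 5 genes met this (Deptor, Ptprm and Il1rapl2), where 2.13% of the 12369 genes did. The median ratio was 4.49 over the 5 genes and 0.947 over all genes. In opossum IT_C 0 of the 3 genes with enough UMIs met it, where 5.11% of 10067 genes did, and the medians were 0.878 and 0.979. Since the labels derive from expression, these counts are a description.

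The position of a cell was measured from the pial side of its region. The labels had not used position, but the side of the region taken as depth, and its direction, were set from cells labelled L6CT and cells of the most superficial subclass (L2/3 or IT_A). In the mouse, Deptor over all V1 cells was highest in the fifth of 10 depth bins, at 0.791 UMIs per 10000 (0.640 to 0.966), against 0.246 in the third bin and 0.204 in the deepest. The fifth bin was the highest in each of the 4 regions, at 0.486, 1.04, 1.01 and 0.922. Il1rapl2 was highest in the sixth bin at 1.10 (0.923 to 1.30), stayed at 0.652 in the ninth and was 0.265 in the deepest, with its highest bin between the fifth and the seventh in the 4 regions. Ptprm had its highest level in the fifth bin at 1.04 (0.864 to 1.24), but in region 3 its highest bin was the second and in region 2 the seventh. Foxo1 ranged from 0.121 to 0.280 and Hsd11b1 from 0.0940 to 0.247 over the bins, and both also had their highest pooled level in the fifth.

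**Figure D2:**
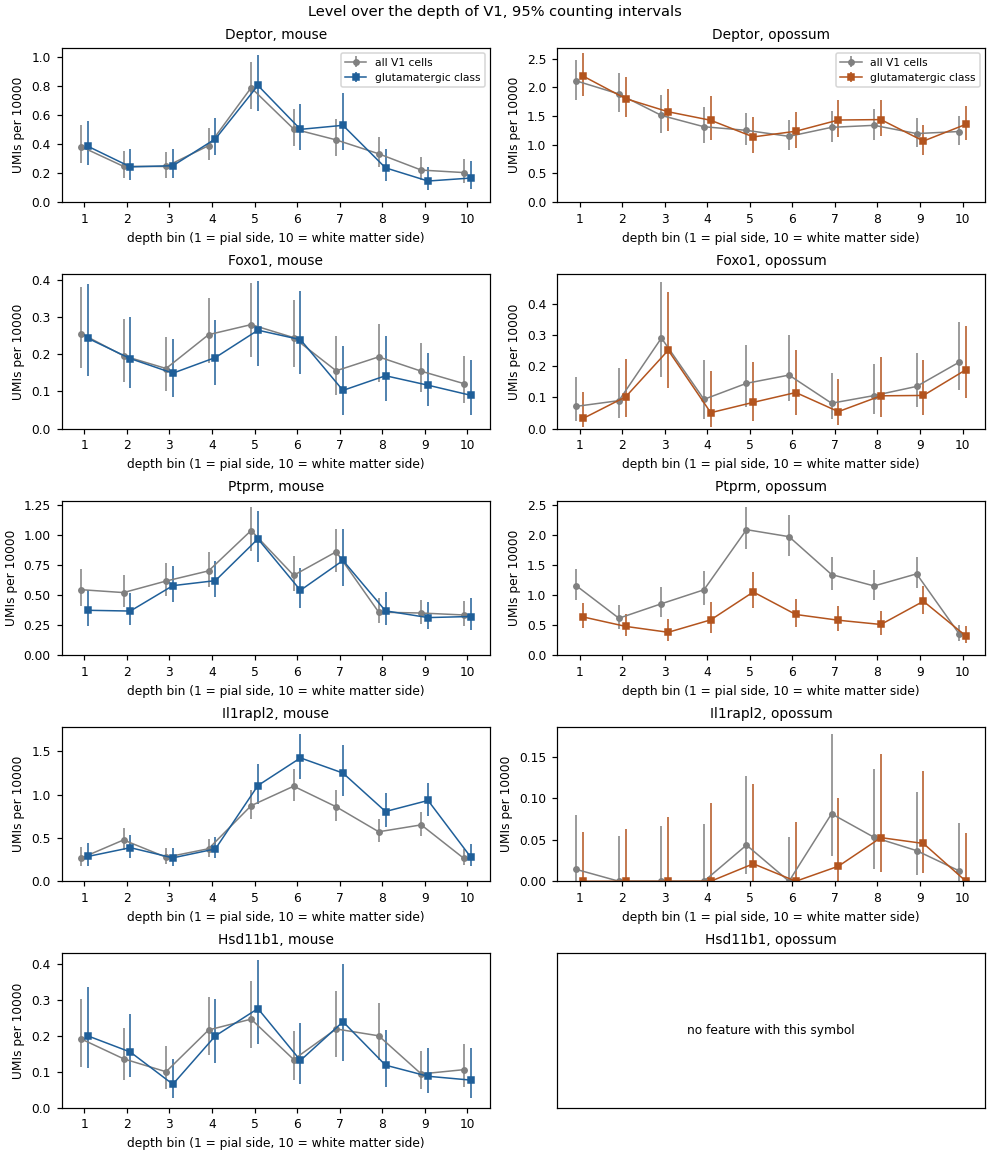
Level of each gene (y axis, UMIs per 10000) in 10 equal bins of depth from the pial side (1) to the white matter side (10), for all V1 cells (grey) and glutamatergic cells (coloured); bars are exact Poisson 95% intervals. Mouse Deptor reaches 0.791 in bin 5, whereas opossum Deptor is highest in bin 1 at 2.11.

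In the opossum, Deptor was highest in the most superficial bin at 2.11 (1.79 to 2.48) and was 1.15 in the sixth bin, with values between 1.15 and 1.34 in the bins from the fourth to the deepest. Its highest bin was the first in region 1 and the second in regions 2 and 3. Ptprm over all cells was highest in the fifth and sixth bins at 2.10 and 1.98, and among glutamatergic cells alone those bins held 1.05 and 0.676. Opossum Foxo1 ranged from 0.0714 in the first bin to 0.291 in the third, and the 18 UMIs of Il1rapl2 included 14 in the seventh to the deepest bins.

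The depths between the 25th and 75th percentiles of L5IT cells, from 352 to 502 µm of a full depth of 774 µm, were then compared with the rest of the cortex among glutamatergic cells (877 cells inside, 5368 outside). Deptor was at 0.652 UMIs per 10000 inside and 0.303 outside, a ratio of 2.15 (1.68 to 2.75). Its ratio was 2.07, 2.63, 2.05 and 1.95 in regions 1 to 4. Il1rapl2 was at 1.49 inside and 0.525 outside, a ratio of 2.83 (2.39 to 3.35), or 2.66, 5.65, 1.59 and 2.39 by region. Hsd11b1 was at 0.244 inside and 0.131 outside, a ratio of 1.86 (1.23 to 2.76) from 36 and 95 UMIs, or 1.55, 2.80, 1.28 and 2.29 by region. These 3 of the 5 genes met the rule of 1.5 and every region, where 2.36% of genes did, and the median ratio was 1.86 over the 5 and 0.996 over all genes. With the band set by the depths of L5PT cells instead, Deptor was at 1.26 (0.836 to 1.84) and Hsd11b1 at 0.677 (0.267 to 1.44), below 1.5, and Il1rapl2 at 2.32 (1.85 to 2.89).

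Foxo1 and Ptprm did not hold their direction over the regions of the mouse. Foxo1 had a band ratio of 1.59 (1.07 to 2.33), with 2.42 and 1.62 in regions 1 and 2 and 0.926 and 0.945 in regions 3 and 4. Ptprm had a ratio of 1.27 (1.00 to 1.60), with 1.93 in region 1 and 1.07, 0.864 and 0.907 in the others, and without region 1 it was 0.926.

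**Figure D3:**
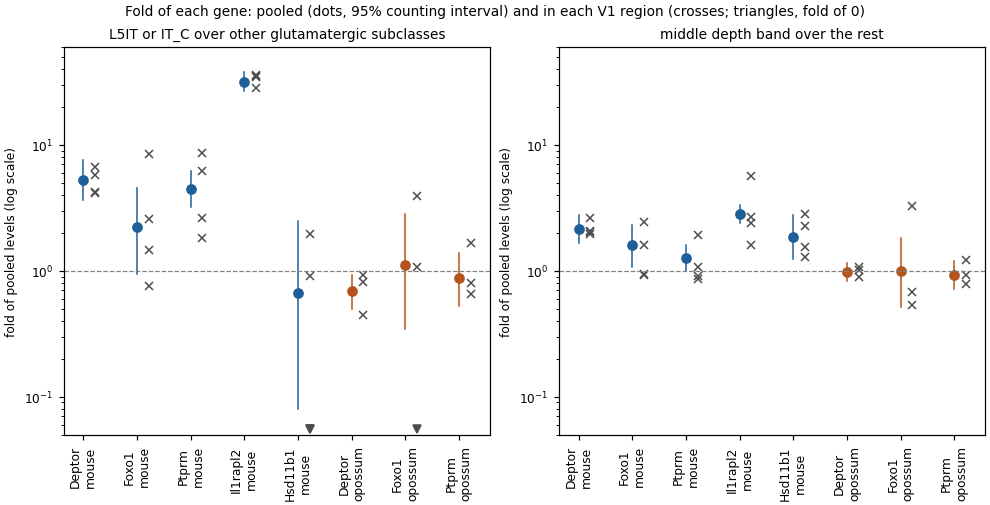
Ratio of levels (y axis, log scale) for each gene and species (x axis), L5IT or IT_C over the other glutamatergic subclasses (left) and the middle depth band over the rest (right); dots are pooled ratios with 95% counting intervals, crosses the ratio in each region, triangles a ratio of 0, and opossum Il1rapl2 is left out for its 18 UMIs. Mouse Deptor lies above 1 in all 4 regions on both sides, and opossum Deptor lies below 1 in all 3 on the left.

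The cells labelled L5IT contributed unequally to these band ratios. When the cells labelled L5IT were left out, the Deptor ratio was 1.83 (1.38 to 2.40) and that of Il1rapl2 1.26 (0.948 to 1.65). Inside the band, L5IT cells held 13.5 UMIs of Il1rapl2 per 10000 (11.4 to 15.8) and the other glutamatergic cells 0.485; outside it L5IT cells still held 10.8 (8.84 to 13.1). Deptor was at 2.09 (1.34 to 3.10) in L5IT cells inside the band and 1.22 (0.632 to 2.14) outside, and at 0.529 and 0.290 in the other glutamatergic cells. Among non-neuronal cells Deptor was at 0.603 inside and 0.380 outside, a ratio of 1.58, and Il1rapl2 at 0.366 and 0.208, a ratio of 1.76. The part of RNA from neighbouring cells in these values was not tested. Ptprm in L5IT cells was at 1.39 inside the band and 2.85 outside, the reverse order. Hsd11b1 had 34 of its 36 UMIs inside the band in glutamatergic cells with labels other than L5IT. In non-neuronal cells Hsd11b1 was also higher inside the band, at 0.301 against 0.188 outside, from 14 and 37 UMIs.

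**Figure D4:**
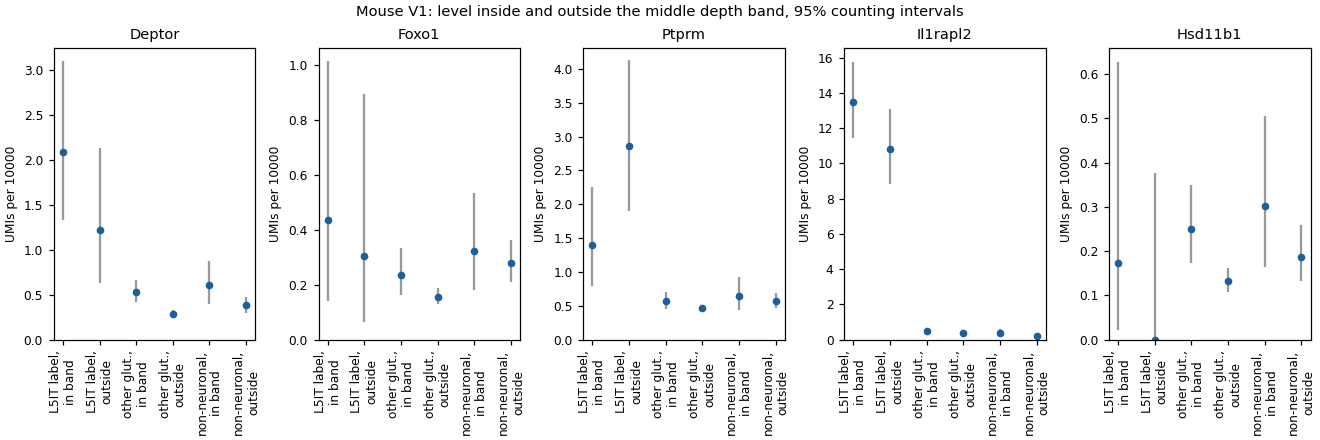
Mouse level of each gene (y axis, UMIs per 10000) in cells labelled L5IT, other cells of the glutamatergic class and non-neuronal cells (x axis), inside the middle depth band and outside it; bars are exact Poisson 95% intervals. Il1rapl2 stays at 13.5 and 10.8 in L5IT cells and at 0.485 or less elsewhere, and Deptor is 0.529 inside the band and 0.290 outside in the other glutamatergic cells.

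In the opossum the same comparison used the 25th to 75th percentiles of the IT_C depths, from 386 to 583 µm of 773 µm (919 cells inside, 2833 outside). Deptor was at 1.45 inside and 1.48 outside, a ratio of 0.975 (0.826 to 1.15), with 0.888, 1.01 and 1.08 by region. Ptprm gave 0.933 (0.715 to 1.21) and Foxo1 0.9996 (0.518 to 1.83) from 15 and 45 UMIs. None of these 3 genes met the rule, where 3.39% of genes did. Restricted to cells with a glutamatergic subclass label as well, the ratio was 1.03 (0.858 to 1.23) for Deptor and 1.01 (0.731 to 1.38) for Ptprm. Within IT_C itself Deptor was at 1.52 (1.06 to 2.13) inside the band and 0.692 (0.368 to 1.18) outside. Among non-neuronal cells Deptor was lower inside the band, at 0.773 against 1.49.

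The mean relative depth of a gene, over its UMIs with each cell scaled to 10000 and with 0 at the pial side and 1 at the white matter side, was 0.459 for mouse Deptor, 0.452 for Foxo1, 0.461 for Ptprm, 0.528 for Il1rapl2 and 0.471 for Hsd11b1, against 0.487 for all cells. Over the 4 regions the standard deviation was 0.0183 for Il1rapl2 and 0.0365 for Deptor, so Il1rapl2 lay deeper than the cells by more than its spread and Deptor shallower by less. In the opossum the mean was 0.463 for Deptor (standard deviation 0.00994 over 3 regions), 0.483 for Ptprm and 0.537 for Foxo1, against 0.493 for all cells.

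Most cells held UMIs of at most 1 of the genes. Of 135 mouse L5IT cells, 109 held a UMI of at least 1 of the 5 genes and 31 (23.0%) of at least 2. The latter share was 1.62% over all mouse V1 cells and 4.73% in Sst cells, the next highest mouse subclass. Deptor was found in 11 of the 87 L5IT cells with Il1rapl2 and in 12 of the 48 without it, and in 7 of the 25 with Ptprm and 16 of the 110 without it. Summed over the 5 genes, L5IT held 16.5 UMIs per 10000 (14.8 to 18.3), of which Il1rapl2 gave most. In the opossum the sum over 4 genes was 1.80 in IT_C and 6.59 in Pvalb cells.

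Over the 17 mouse subclasses the profile of Deptor was most like those of Fras1 (Pearson r = 0.923), D130040H23Rik (0.908) and Il1rapl2 (0.883). That of Il1rapl2 was most like Fras1 (0.936), Hhipl1 (0.897) and Hs3st2 (0.890), each highest in L5IT. Ptprm was most like Tox3 (0.875), Mroh1 (0.824) and Cars (0.824), each highest in Lamp5. This likeness also rested on few UMIs, since Lamp5 had 35 cells with 12 UMIs of Ptprm. The Tox3 level there, 0.721 UMIs per 10000, is that of 3 UMIs. Foxo1 was most like AW549877 (0.876), Ube2l3 (0.869) and Gpc6 (0.851), and Hsd11b1 most like Smcr8 (0.854), Lurap1 (0.836) and Txlna (0.833), from few UMIs. Over the 14 opossum subclasses Ptprm was most like TMTC2 (0.979), GAD2 (0.960) and TMEM132C (0.940), all highest in Pvalb cells, and Deptor most like POLA1 (0.804), ENSMODG00000028963 (0.795) and UMPS (0.786). Deptor and Ptprm had an r of 0.138 in the mouse and 0.0628 in the opossum. These correlations are over subclasses that share cells, depth and labels, and they are descriptions.

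Genes of the same pathways were read by the same rule, which 2.13% of all genes met in mouse L5IT, 2.36% in the mouse band, 5.11% in opossum IT_C and 3.39% in the opossum band. Among mTOR complex genes 2 of 9 met it in mouse L5IT, with a median ratio of 1.41 over the list. They were Mtor at a ratio of 2.21 (1.53 to 3.12) and Rptor, the scaffold of complex 1, at 1.65 (1.04 to 2.51). In the depth band 0 of 9 met it. The lowest in L5IT was Prr5l at 0.586 (0.0146 to 3.39), and the band ratios ran from 0.780 for Prr5l to 1.24 for Mapkap1. In opossum IT_C and its band 0 of 6 did, with ratios from 0.766 for Telo2 to 1.17 for Mlst8 in IT_C, and from 0.525 for Mlst8 to 1.39 for Telo2 in the band. Of the genes upstream and downstream of mTOR, 0 of 19 met it in either mouse comparison and 0 of 17 in either opossum one. The highest of them in L5IT was Rragb, a Rag GTPase, at 5.96 (2.59 to 12.2), which was above 1 in 3 of 4 regions, and the lowest was Eif4ebp2 at 0.205 (0.00517 to 1.16). The mouse band ratios ran from 0.817 for Tsc1 to 1.22 for Ulk1. The opossum ratios ran from 0.823 for Rragd to 1.48 for Pik3ca in IT_C and from 0.652 for Eif4ebp2 to 1.39 for Pik3r1 in the band. In the insulin and FoxO list 1 of 9 met it in mouse L5IT, the adaptor Irs1 at 3.08 (1.60 to 5.42), and 0 of 9 in the band, where Irs1 was highest at 1.53 in 3 of 4 regions and Foxo3 lowest at 0.713. The lowest in L5IT was Sirt1 at 0.350 (0.00879 to 2.00). In the opossum 0 of 4 did, with ratios from 0.508 for Igf1r to 1.28 for Foxo6 in IT_C and from 0.569 for Foxo6 to 1.32 for Insr in the band.

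For the relatives of PTPRM and the proteins it is known to bind, 0 of 5 met the rule in the mouse, where the ratios ran from 0.666 for Ptprk to 2.06 for Ptprt in L5IT, the latter above 1 in 3 of 4 regions, and from 0.681 for Ctnnd1 to 0.899 for Ptprt in the band. In the opossum Ptprk, its close homologue, did in IT_C at 2.41 (1.95 to 2.95), as 1 of 2, and Ctnnd1, a catenin, did in the band at 1.73 (1.30 to 2.28). In the other comparison Ctnnd1 was at 1.44 in IT_C and Ptprk at 1.46 in the band. Of the IL1RAPL family and its synaptic partners 0 of 5 met it in the mouse, where Il1rapl1 was lower in L5IT in all 4 regions at 0.671 (0.513 to 0.862) and Ptprs was highest at 1.20. In the mouse band the ratios ran from 0.740 for Il1rapl1 to 1.36 for Ptprf. In the opossum 0 of 4 did in IT_C, from 0.665 for Ptprs to 1.38 for Ptprd, and 1 of 4, Il1rap, in the band at 1.58 (1.23 to 2.01), where Il1rapl1 was lowest at 0.564. Of the glucocorticoid genes 0 of 4 did in the mouse, from 0.517 for Nr3c2 to 0.859 for the glucocorticoid receptor gene Nr3c1 in L5IT and from 0.799 for Nr3c1 to 1.16 for Fkbp5 in the band. In the opossum 0 of 2 did, with Nr3c1 at 0.807 and 0.973 and Fkbp5 at 1.24 and 0.750 in IT_C and the band.

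Other markers of layer 5 IT neurons gave different counts by label and by position in the mouse. In L5IT cells 0 of 9 met the rule, with a median ratio of 0.812 against 0.947 over all genes. Tcerg1l was highest there at 2.45 (0.772 to 5.98) in 2 of 4 regions, while Endou (upper limit of the ratio 2.31) and Whrn (upper limit 0.643) held 0 UMIs. Parm1 was at 0.347 (0.127 to 0.760) in L5IT, below 1 in all 4 regions. In the band 3 of 9 did, against 2.36% of all genes, Tcerg1l at 4.15 (2.62 to 6.53), Parm1 at 2.53 (2.15 to 2.96) and the transcription factor Etv1 at 2.31 (1.98 to 2.68), and Col6a1 was lowest at 0.689. In the opossum 2 of 5 met it in IT_C, against 5.11% of all genes, Etv1 at 2.68 (2.08 to 3.43) and Rorb at 2.51 (1.95 to 3.20), and the same 2 did in the band at 1.93 and 2.20. Rorb, also a marker of layer 4, was highest in IT_B, at 7.50 UMIs per 10000 against 2.04 in IT_C. The opossum Tcerg1l ratio was the lowest in both, at 0.383 (0.152 to 0.806) in IT_C and 1.02 in the band.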

How the data were processed

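UMI counts per gene and cell were deposited by the authors, who per the study's methods ran the Stereo-seq Analysis Workflow, aligned mouse reads to GRCm39 and opossum reads to a custom genome, segmented cells and kept those with at least 100 UMIs and 50 genes. V1 cells that passed the authors' column filter were used, with their labels; the mouse annotation release was not given in the sources used here. Mouse coordinates are from GENCODE M39. Counts of each gene were pooled per subclass, region or depth bin in Python 3.11.15 with shapely 2.1.2, pandas 2.3.3, scipy 1.17.1 and numpy 2.4.6. Depth ran along that side of each region's smallest rectangle on which the medians of L6CT and of L2/3 or IT_A cells lay farthest apart, with 2 spatial units to 1 µm. Subclasses had at least 25 cells. Clopper-Pearson intervals were used for shares of cells, also after thinning to 500 UMIs. Doublets were not called, and no barcode was shared by the 2 samples. The members, gene lists and rules were chosen with earlier results of these data known. Genes of the lists are named where they met the rule or had the highest or lowest ratio, and the 3 genes most like each member (at least 100 UMIs in V1) by correlation. The ratio calculation was tested on simulated Poisson counts for the subclass comparisons, with each gene at the same level in every region apart from any ratio set. Variation between cells and regions beyond counting error was not simulated, so the shares in the real data can differ from those that follow. Of genes with no true difference, 1.91% met the rule in mouse L5IT and 2.16% in opossum IT_C. Of genes with a true ratio of 2, 40.0% met it in mouse L5IT and 81.0% in opossum IT_C. A gene that did not meet the rule may therefore still differ. Leaving out each region, other bands, references, label rounds and filters were tried.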

Additional observations from a re-analysis of the deposited data

Results flagged for a closer look

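The pooled Deptor ratio differed in direction between the species. Mouse L5IT stood at 5.30 times the level of the other glutamatergic subclasses, above 1 in all 4 regions (4.16 to 6.65). Opossum IT_C stood at 0.689 times, below 1 in all 3 regions (0.449 to 0.919). The opossum intervals included 1 in region 2 (0.518 to 1.23) and region 3 (0.428 to 1.76). IT_A held 455 of the 638 Deptor UMIs of the other opossum glutamatergic subclasses and 1596 of their 2444 cells. Against IT_C, L6CT stood at 1.10 (0.778 to 1.57) and L5PT at 1.30 (0.813 to 2.05). L5NP stood at 0.768 (0.268 to 1.80) and IT_B at 0.701 (0.377 to 1.24). Inside the depth band IT_C was at 1.52 and the other glutamatergic cells at 1.43. The difference between the species was not tested, since each species was 1 animal. It cannot be told apart from differences between these 2 animals, their ages or sections, or between the 2 reference atlases that gave the labels. Nor can it be told apart from L5IT and IT_C not being matching cell types, since the study found their correspondence weak.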

How the results depend on the processing

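No paired analysis was possible because each species was 1 sample. Of 84 alternatives for the subclass ratios 76 stayed within the error given with the value, as did 92 of 104 for the depth band, 54 of 59 for mean depth and 4 of 9 for shares. With labels of the first round, the ratios were 9.54 for mouse Deptor, 4.92 for Foxo1 and 6.22 for Ptprm, and 0.477 for opossum Deptor. Mouse Il1rapl2 was 39.4 as a mean over cells and 26.6 against IT subclasses, and opossum Ptprm 0.380 against all labelled cells. Leaving out 1 region gave 3.00 to 5.53 for mouse Ptprm in L5IT, and in the band 0.926 to 1.40 for Ptprm and 2.27 to 3.20 for Il1rapl2. With the band of L5PT the ratios were 1.26 (Deptor), 0.976 (Ptprm), 2.32 (Il1rapl2) and 0.677 (Hsd11b1), so Ptprm and Hsd11b1 reversed. The Hsd11b1 band ratio thus depends on the band used. Unscaled depth gave 1.65 for Ptprm. Without L5IT cells Il1rapl2 was 1.26. In non-neuronal cells the ratios were 1.58 (Deptor) and 1.76 (Il1rapl2) in the mouse, and 0.520 (Deptor) and 1.28 (Ptprm) in the opossum. Mean depth from plain sums was 0.496 and 0.477 for mouse and opossum Deptor and 0.549 for Il1rapl2, against 0.521 (mouse) and 0.526 (opossum) for all UMIs. In glutamatergic cells mean depth was 0.408 for Deptor and 0.423 for Hsd11b1. The mean depth of glutamatergic cells themselves was not computed, so these 2 values have no background here. Thinned shares were 7.58%, 5.30% and 40.9% for mouse Deptor, Ptprm and Il1rapl2, and 6.64% and 1.77% for opossum Deptor and Ptprm. Of all genes, 123 (mouse L5IT), 87 (mouse band), 174 (IT_C) and 72 (opossum band) met a ratio of 2; with at least 200 UMIs 118, 217 and 94 met 1.5 in the last 3, and 535 in the opossum band with at least 20. Leaving out the richest cell or using both labels, chosen after seeing the data, kept each ratio within its interval. For opossum Foxo1 and Il1rapl2, under 100 UMIs each, no neighbours in the order of subclasses differed by more than counting error. The cause of these shifts was not tested.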
